A study of Mus musculus with 4 samples.

Results

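Open chromatin at 9 hedgehog pathway genes was described in palatal mesenchyme of mouse embryos: the receptor gene Ptch1, the signal transducer gene Smo, the transcription factor genes Gli1, Gli2 and Gli3, the antagonist gene Hhip, and the co-receptor genes Gas1, Cdon and Boc. Peaks of 4 ATAC-seq libraries (an assay in which a transposase inserts adapters into open DNA) were merged wherever they shared at least 1 bp, which gave 39843 regions in mm10. A region belonged to the nearest of 21631 protein-coding genes when its midpoint lay within 100 kb of the gene body. By that rule 70 of the 39843 regions belonged to the 9 genes, and 33 of the 70 held a peak in all 4 libraries; these are called shared regions. Green fluorescent cells were sorted from palates of E14.5 embryos, with a pool of 50000 cells per group. The mutant group (Shox2Cre/-;Nkx2.5F/F;R26RmTmG, 2 libraries) carried Cre at 1 Shox2 allele and a null allele opposite it, and the control group (Shox2Cre/+;Nkx2.5F/F;R26RmTmG, 2 libraries) carried the same Cre opposite an intact allele. Shox2 is a homeobox gene of the anterior palate. All groups were homozygous for a floxed Nkx2-5 allele and carried the R26RmTmG reporter, which turns green once Cre has acted, so the controls had 1 intact Shox2 allele and were not wild type at Nkx2-5. Whether the libraries of a genotype are separate biological samples is not stated in the labels, and p-values measure only the spread between these libraries, which may be technical. All members are described from peak calls, so a weaker peak can reflect fewer cells with open DNA or less opening per cell, which cannot be told apart.

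Hedgehog ligands bind Patched 1, which otherwise keeps Smoothened inactive. Released Smoothened acts in the primary cilium to turn the Gli proteins from repressors into activators. In the developing palate Sonic hedgehog is made by the epithelium, and the mesenchyme beneath receives it. Ptch1, Hhip and Gli1 are themselves transcribed in response to the signal in many tissues.

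The mutant lists held 29225 and 31832 peaks and the control lists 30239 and 22966. The level used here is the percentile of a peak by the authors' score within its own library, where 100 is the strongest peak of that list. Control 2 had the shortest list, and its shared regions ranked low in it: over all 18904 shared regions the median percentile was 67.6 and 70.2 in mutants 1 and 2, and 68.7 and 58.8 in controls 1 and 2. Control 2 gave the lowest of the 4 percentiles in 64.7% of all shared regions and in 22 of the 33 at the 9 genes. Differences were therefore also taken from ranks among the shared regions alone, where all 4 libraries have the same number of ranks. With 2 libraries against 2, the two-sided exact permutation test cannot give a p under 0.333. Of 6 palate mesenchyme genes, Twist1, Msx1 and Osr2 held a peak within 1 kb of a gene end in all 4 libraries, Pdgfra in 3, Prrx1 in mutant 1 and control 1, and Alx4 in both controls. Of 18 markers of other cell types, 12 held none, Myod1 held one in mutant 1 and control 1, and Epcam, Cdh1, Kdr, Tubb3 and Spi1 held one in all 4 libraries. The percentiles of those 5 ran from 6.17, at Epcam in control 2, to 70.3, at Kdr in control 1. The part of other cell types in the results was not tested.

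RefSeq promoter windows (GRCm38.p6, the same build as mm10, 250 bases before to 50 after a start site) were found for 7 of the 9 genes, and not for Gli1 and Boc. In 5 of them, those of Smo, Gli2, Gli3, Hhip and Gas1, all 300 bases lay inside a peak in every library. Of these 5, the windows of Smo, Gli2, Gli3 and Gas1 are shown and that of Hhip is not. The window of Ptch1 is shown because its peaks lie upstream, with 44 bases of the window covered in mutant 2 and 0 in the other libraries. Each printed window runs 5′ to 3′ on the gene's own strand. Capitals mark GC boxes (GGGCGG, or CCGCCC where the box is on the opposite strand) and the CCAAT box.
Smo, chr6:29735247-29735546, + strand: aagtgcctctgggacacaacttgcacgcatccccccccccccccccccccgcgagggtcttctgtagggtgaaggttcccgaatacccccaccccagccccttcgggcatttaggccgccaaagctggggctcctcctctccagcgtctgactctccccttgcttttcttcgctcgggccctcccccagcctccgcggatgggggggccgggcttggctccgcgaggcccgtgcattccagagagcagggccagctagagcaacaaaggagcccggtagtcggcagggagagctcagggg
Gli2, chr1:119053570-119053869, - strand: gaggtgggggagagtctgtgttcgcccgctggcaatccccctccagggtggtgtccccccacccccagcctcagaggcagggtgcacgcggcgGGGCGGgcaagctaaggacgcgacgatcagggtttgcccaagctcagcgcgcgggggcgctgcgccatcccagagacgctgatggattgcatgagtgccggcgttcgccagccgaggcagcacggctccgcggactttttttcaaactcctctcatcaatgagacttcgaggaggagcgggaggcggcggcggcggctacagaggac
Gli3, chr13:15463473-15463772, + strand: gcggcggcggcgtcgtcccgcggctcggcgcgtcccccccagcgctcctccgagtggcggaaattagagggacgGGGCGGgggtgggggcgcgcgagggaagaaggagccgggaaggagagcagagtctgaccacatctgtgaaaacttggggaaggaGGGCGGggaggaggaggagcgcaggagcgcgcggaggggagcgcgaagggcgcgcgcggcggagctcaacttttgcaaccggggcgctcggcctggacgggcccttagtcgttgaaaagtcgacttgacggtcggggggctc
Gas1, chr13:60177486-60177785, - strand: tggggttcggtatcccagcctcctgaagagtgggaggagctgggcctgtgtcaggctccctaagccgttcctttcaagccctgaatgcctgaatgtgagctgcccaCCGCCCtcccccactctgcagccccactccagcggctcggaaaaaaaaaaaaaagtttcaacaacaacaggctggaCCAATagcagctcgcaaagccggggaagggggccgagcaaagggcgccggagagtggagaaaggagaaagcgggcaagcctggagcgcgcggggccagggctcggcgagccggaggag
Ptch1, chr13:63565686-63565985, - strand: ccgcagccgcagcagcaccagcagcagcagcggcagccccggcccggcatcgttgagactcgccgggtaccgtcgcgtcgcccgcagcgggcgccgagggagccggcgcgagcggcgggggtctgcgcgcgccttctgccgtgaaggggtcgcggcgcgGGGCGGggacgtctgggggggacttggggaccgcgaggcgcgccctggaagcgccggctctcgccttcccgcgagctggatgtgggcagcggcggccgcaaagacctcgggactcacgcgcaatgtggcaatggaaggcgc

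The covered windows were rich in G and C. The share of G and C was 67.7% at Smo, 67.3% at Gli2, 71.0% at Gli3, 73.7% at Hhip and 62.3% at Gas1, and 76.3% in the window of Ptch1, against a median of 52.7% over 32851 RefSeq windows. A GC box was present in 5 of the 7 windows (Ptch1, Gli2, Gli3, Hhip and Gas1) and in 35.7% of all windows. CCAAT was present in 2 of the 7, Gas1 and Cdon, and in 37.4% of all. The Gli site GACCACCCA was in 0 of the 7 windows and in 0.253% of all windows, and with its middle position free (GACCNCCCA, which takes in the first motif) it was in 0 of the 7 and 0.977% of all. TAATTA, a homeodomain site, was in 0 of the 7 and 5.29% of all. The paired homeodomain site, TAAT and ATTA parted by any 3 bases, was in 0 of the 7 and 0.487% of all. The Nkx2 site TNAAGTG was in 1 of the 7, that of Cdon, and in 11.5% of all, and TATAAA was in 0 of the 7 and in 13.6% of all. Both strands were searched for each motif. These are matches of letters in a window and say nothing on whether a factor binds there.

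Peak summits of the 4 libraries lay within 7 bp of each other at Smo, and spanned 80 bp at Gas1, 165 bp at Gli2, 174 bp at Gli3 and 224 bp at Hhip. Relative to the RefSeq start, the summits at Smo lay 44 and 42 bp downstream in mutants 1 and 2 and 49 and 42 bp downstream in controls 1 and 2. At Gas1 they lay at −42 and −69 bp in the mutants and at 9 and 11 bp in the controls. At Gli2 they lay at −146 and −247 bp in the mutants and at −283 and −311 bp in the controls, and at Gli3 at −497 and −430 bp in the mutants and −497 and −604 bp in the controls. Summits of Hhip lay at 47 and −49 bp in the mutants and 70 and 175 bp in the controls. At Gas1 and Hhip the mutant summits were upstream of both control summits, and at Gli2 they were downstream of both. Summits of the mutants lay to 1 side of both control summits in 11 of the 33 shared regions of the 9 genes (33.3%), against 31.3% of all shared regions. Over all shared regions the 4 summits of a region spanned a median of 99 bp, and over the 33 shared regions of the 9 genes 126 bp.

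**Figure D1:**
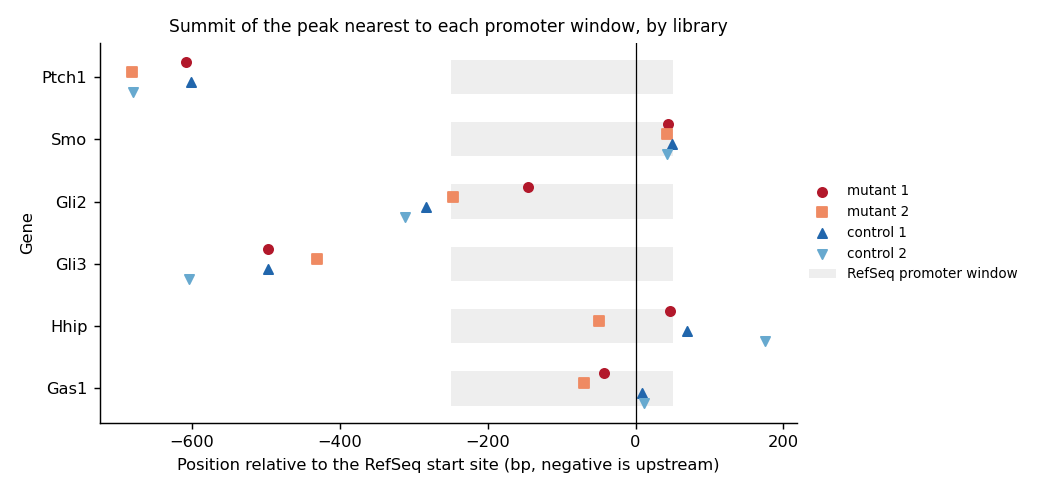
Position of the peak summit in each library (x axis, bp from the RefSeq start site, negative is upstream) at the 6 genes with a shared region at their promoter window (y axis). Grey bars are the 300-base windows, points are single libraries. Smo summits lie within 7 bp of each other, and Ptch1 summits lie between −681 and −601 bp.

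The 9 genes held from 1 to 17 regions each, and each gene had at least 1 shared region. Gli3 had 17 regions, of which 8 were shared, and Gli2 had 13, of which 6 were shared. Boc had 11 regions with 5 shared, Ptch1 had 9 with 4 shared, Gas1 had 8 with 5 shared, and Cdon had 7 with 2 shared. Hhip had 3 regions with 1 shared, and Smo and Gli1 had 1 region each, which was shared. In all, 33 of the 70 regions were shared (47.1%), and 47.4% of all regions were. Only 28 of the 21631 protein-coding genes had 8 or more shared regions, and 9463 had 0. Gene size and free space around a gene bear on this count: the stretch of genome nearest to Gli3 spans 470 kb and that nearest to Smo 35 kb, measured on a grid of 5 kb. Summed over the 9 genes there were 1.74 shared regions per 100 kb of such stretch, and 0.939 over all genes. By density Gli1 had 5 shared regions per 100 kb, from its 1 region, and Hhip had 0.351. The genes most like Gli3 in the numbers of regions held by 1, 2, 3 and 4 libraries were Pakap, Adgrv1 and Pdzd2, at Euclidean distances of 1.73, 2 and 2.24 over those 4 numbers.

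**Figure D2:**
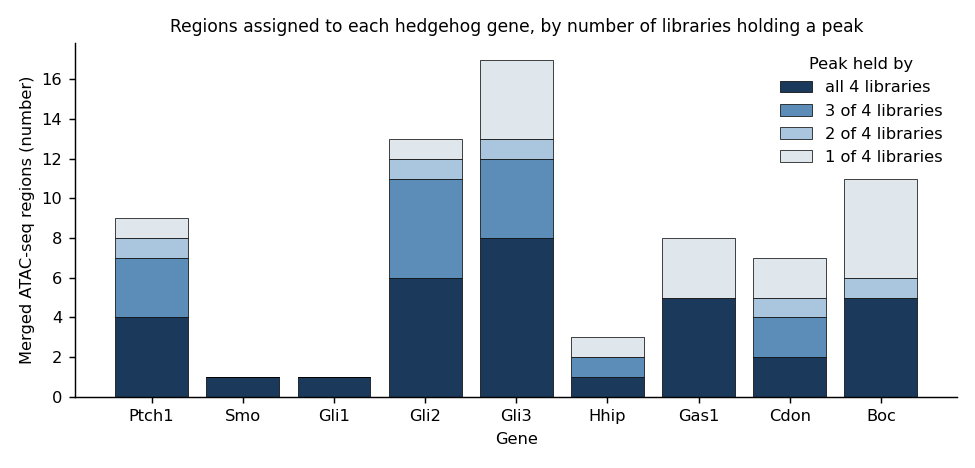
Number of merged ATAC-seq regions assigned to each gene (y axis), stacked by how many of the 4 libraries hold a peak in the region. Gli3 has 17 regions with 8 held by all 4 libraries, and Smo and Gli1 have 1 each.

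Most shared regions of the 9 genes lay away from gene ends. Within 1 kb of a gene end lay 7 of the 33 (21.2%), inside a gene 12 (36.4%) and outside genes 14 (42.4%), against 50.9%, 25.3% and 16.5% of all shared regions. The remainder of all shared regions lay over 100 kb from any protein-coding gene, a place that the rule excludes for the 9 genes. Gene size and free space around a gene bear on these shares as on the counts above, and their part was not tested. The 7 at gene ends were 1 each at Smo, Gli2, Gli3, Hhip, Gas1, Cdon and Boc. Their median percentile, each averaged over the 4 libraries, was 86.9, against 77.5 for all shared regions at gene ends. For the 12 inside genes it was 62.9 against 55.8, and for the 14 outside genes 54.95 against 51.2. Median region width was 1135 bp, against 1164 bp over all shared regions. The region farthest from its gene was 89.6 kb from Gli2 and was held by 3 libraries, and the nearest one past the limit of 100 kb lay 105 kb from Gas1, with percentiles of 44.3 and 39.9 in the mutants and 50.8 and 5.75 in the controls.

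Ptch1 encodes the receptor that holds Smoothened inactive, and its gene body runs from 63508328 to 63573460 on chromosome 13. The region over its 5′ end (63572617 to 63574064) was held by 3 libraries, with percentiles of 55.3 in mutant 2, and 38.9 and 12.9 in controls 1 and 2; mutant 1 had no listed peak there. Ptch1 and Gli1 were the genes of the 9 without a shared region at a gene end. The strongest shared region of Ptch1 lay inside the gene, 5.42 kb from that end (63567708 to 63568373), at percentiles of 77.3 and 79.8 in the mutants and 81.8 and 65.4 in the controls. A second (63565942 to 63566922) lies just upstream of the RefSeq start whose window is printed above, and its percentiles were 47.5 and 43.6 in the mutants and 52.2 and 33.4 in the controls. In both of these regions the groups overlapped, since control 1 was the highest library and control 2 the lowest.

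The Ptch1 region farther out, 54.0 kb from the gene (63627087 to 63627889), separated the groups. Its percentiles were 74.5 and 70.7 in mutants 1 and 2 and 60.2 and 51.1 in controls 1 and 2, a difference of 16.9 points. The deposited fold enrichment there was 10.4 and 10.2 in the mutants and 8.82 and 8.06 in the controls, and its rank among shared regions was also higher in both mutants, by 16.8 points. The other shared region, 68.5 kb away (63641550 to 63642329), had percentiles of 51.0 and 48.7 in the mutants and 55.8 and 42.7 in the controls, which overlap. Both mutants were below both controls there by rank among shared regions, with 26.8 and 19.5 in the mutants and 30.8 and 31.2 in the controls. Ptch1 held the single mutant-only region of the 9 genes, that is a peak in both mutants and in neither control. It lies inside the gene (63525657 to 63526373), at percentiles 25.9 and 36.3. One mutant-only region among 70 is 1.43%, and 4.47% of all regions were mutant-only. With 1 library left out, so that 1 fewer call decides, the 9 genes had 11 such regions without mutant 1 (16.7%, against 14.7% of all regions), 5 without mutant 2 (8.20%, against 11.4%), 9 without control 1 (13.2%, against 13.9%) and 4 without control 2 (5.80%, against 6.34%).

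Smo, the gene of the transducer Smoothened, had its single region over its start (chromosome 6, 29735161 to 29736615). Its percentiles were 92.3 and 92.2 in the mutants and 92.8 and 88.0 in the controls, and the deposited fold enrichment was 10.6 in each mutant and 11.3 and 9.23 in the controls. Both measures overlapped between the groups. Hhip encodes a membrane protein that binds hedgehog ligands and limits their spread. Its shared region at the 5′ end (chromosome 8, 80057066 to 80058776) had percentiles of 67.4 and 69.6 in the mutants and 70.2 and 49.0 in the controls. Control 1 was above both mutants there and control 2 far below them. A further Hhip region 29.3 kb outside the gene (79935741 to 79937298) lacked mutant 1, with 31.9 in mutant 2 and 16.2 and 18.98 in the controls.

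Gas1, Cdon and Boc encode cell surface proteins that bind hedgehog ligand together with Patched 1. At the Gas1 end (chromosome 13, 60176342 to 60178068) percentiles were 90.5 and 90.8 in the mutants and 87.4 and 83.2 in the controls. The groups did not overlap there, and the difference was 5.33 points, or 5.16 by rank among shared regions. The other 4 shared regions of Gas1 all lay outside this gene of 3.13 kb, from 15.9 to 65.3 kb away, and the strongest of them, 63.8 kb away (60110183 to 60111041), had percentiles of 84.0 and 79.2 in the mutants and 81.2 and 55.1 in the controls. In those 4 the whole-list percentiles overlapped. Ranked among shared regions, the nearest of them, 15.9 kb away (60193031 to 60193869), had 9.64 and 13.1 in the mutants and 15.7 and 18.3 in the controls, without overlap.

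Cdon had 2 shared regions, and in both of them each mutant ranked above each control, an order found in 29.1% of all shared regions. At the 5′ end of the gene body (chromosome 9, 35420924 to 35422392) the percentiles were 87.0 and 91.4 in the mutants and 85.1 and 83.9 in the controls, and 15.9 kb outside the gene (35405061 to 35406126) they were 72.4 and 67.8 in the mutants and 66.1 and 58.9 in the controls. By rank among shared regions, and by deposited fold enrichment, the groups overlapped in both. The RefSeq window of Cdon starts from a site 30.5 kb inside the gene body and held no peak in any library.

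Boc had 5 shared regions, 2 of them inside the gene and 2 far outside it. The highest in rank lay 73.9 kb away (chromosome 16, 44631920 to 44633522), with percentiles of 87.2 and 92.5 in the mutants and 88.7 and 92.4 in the controls. Inside the gene, a region at 44530590 to 44531561 had 88.6 and 87.8 in the mutants and 83.6 and 76.7 in the controls, without overlap. Its neighbour at 44509678 to 44511281 had 75.2 and 81.7 in the mutants and 85.9 and 75.7 in the controls, which overlap. Its ranks among shared regions put both mutants below both controls, with 61.7 and 69.2 in the mutants and 77.4 and 70.5 in the controls. Another distant region, 57.4 kb away (44615298 to 44617184), had 78.9 and 72.8 in the mutants and 79.6 and 59.6 in the controls, also with overlap. At the gene end (44557579 to 44559160) the percentiles were 57.2 and 67.4 in the mutants and 65.9 and 58.3 in the controls, with overlap, and the ranks among shared regions were 34.7 and 45.5 in the mutants and 45.7 and 49.5 in the controls, without it. Boc also held the single control-only region of the 9 genes, inside the gene at 44542029 to 44543259, with percentiles of 11.2 and 18.2. That is 1.43% of the 70 regions, and 1.07% of all regions were control-only. With 1 library left out there were 3 without mutant 1 (4.55%, against 2.61% of all regions), 3 without mutant 2 (4.92%, against 3.69%), 2 without control 1 (2.94%, against 2.81%) and 3 without control 2 (4.35%, against 8.45%).

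**Figure D3:**
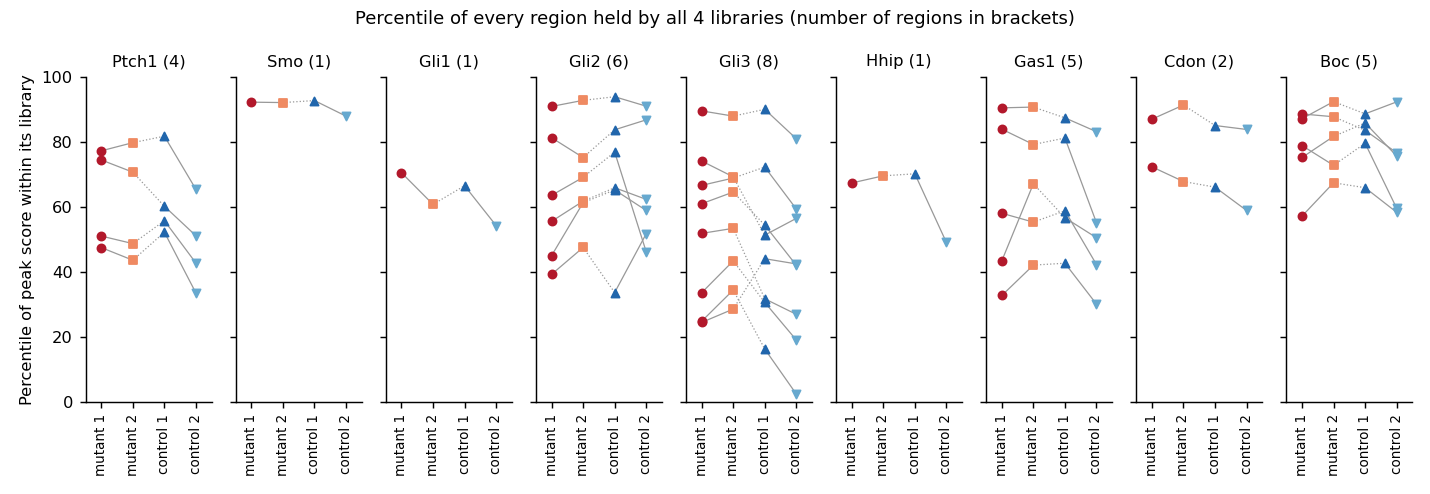
Percentile of the peak score within its library (y axis) for each of the 33 shared regions, 1 panel per gene, with the 2 mutant libraries left of the 2 control libraries. Points of 1 region are joined, dotted between the groups. Control 2 is the lowest library in 22 of the 33 regions, and Gli3 and Gli2 hold the most regions, 8 and 6.

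Gli1 encodes an activator and had its single region inside the gene, 1.74 kb from an end (chromosome 10, 127338817 to 127340866), at 2050 bp one of 2 shared regions of the 9 genes that were 2 kb or wider. Its percentiles were 70.5 and 60.8 in the mutants and 66.5 and 54.2 in the controls, which overlap. Gli2 encodes the main activator at the start of the response, and Gli3 the main repressor in the absence of ligand. These are the largest genes of the 9, at 220 kb (Gli2, chromosome 1, 118834061 to 119054405) and 266 kb (Gli3, chromosome 13, 15463723 to 15730026).

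Gli3 ranked higher in the mutants on average at 7 of its 8 shared regions, and 75.3% of all shared regions did so. At its 5′ end (15462644 to 15464978) the groups overlapped, with 89.6 and 88.0 in the mutants and 90.1 and 81.0 in the controls. Away from that end, 5 of the other 7 regions had both mutants above both controls, as did 29.1% of all shared regions. The largest difference was upstream, 36.7 kb from the gene (15426487 to 15427526), where percentiles were 51.8 and 53.4 in the mutants and 31.7 and 26.9 in the controls, a difference of 23.3 points. The deposited fold enrichment of that region was 7.34 and 7.32 in the mutants and 6.21 and 6.50 in the controls. When all annotated genes were used, and not only protein-coding ones, that region was assigned to another gene.

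Its neighbour 42.1 kb upstream (15421038 to 15422206) had percentiles of 61.0 and 64.6 in the mutants and 54.4 and 42.0 in the controls. Inside the gene, 82.1 kb from the 5′ end (15545124 to 15546489), a weak region had 24.8 and 34.4 in the mutants and 16.2 and 2.32 in the controls. Farther in, the region at 15624213 to 15625299 had 74.1 and 69.3 in the mutants and 51.3 and 56.5 in the controls. None of these 3 overlapped between the groups, and their differences were 14.6, 20.3 and 17.8 points. The fifth such region (15706997 to 15708040) had 33.5 and 43.4 in the mutants and 30.6 and 18.98 in the controls. Its deposited fold enrichment overlapped, with 5.70 and 6.36 in the mutants and 5.78 and 5.98 in the controls. In the other 3 regions of this paragraph the enrichment did not overlap.

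Beyond the 3′ end of Gli3 the order changed. A region 12.1 kb outside the gene (15741650 to 15742509) had 24.4 and 28.5 in the mutants and 44.0 and 42.4 in the controls, a difference of −16.8 points and the lowest of the 33. The last region, 29.5 kb outside (15758817 to 15760306), had 66.6 and 68.9 in the mutants and 72.3 and 59.4 in the controls. By rank among shared regions the same 5 Gli3 regions had both mutants above both controls, and both regions beyond the 3′ end had both mutants below. On that scale 17.6% of all shared regions were above and 18.0% below.

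Gli2 was the only one of the 9 genes with a lower mean whole-list percentile in the mutants. By rank among shared regions the mean was also lower at Gli1 (difference −0.791) and Boc (−1.73). Over the 6 shared regions of Gli2 the mean whole-list percentile was 62.6 and 68.0 in the mutants and 69.9 and 66.2 in the controls. That is a difference of −2.76 points with overlapping groups (exact permutation p = 0.667). At its 5′ end (119053321 to 119054427) percentiles were 81.3 and 75.2 in the mutants and 83.8 and 86.8 in the controls, and the deposited fold enrichment was 5.55 and 5.08 in the mutants and 6.19 and 6.85 in the controls. Inside the gene, 20.2 kb from that end (119033612 to 119034876), percentiles were 55.5 and 61.8 in the mutants and 65.9 and 62.3 in the controls. In both regions each mutant lay below each control, an order found in 5.62% of all shared regions. The lowest difference at Gli2 was at another region inside the gene (118873295 to 118874098), at −8.94 points. Its percentiles overlapped, with 45.0 and 61.3 in the mutants and 65.2 and 58.9 in the controls. By rank among shared regions its difference was −19.5, and the groups did not overlap.

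The strongest Gli2 region lay 71.8 kb inside the gene (118981917 to 118983350), with 91.0 and 92.8 in the mutants and 94.0 and 91.0 in the controls. By rank among shared regions all 6 Gli2 regions were lower in the mutants on average, and in 4 of the 6 both mutants were below both controls, where 18.0% of all shared regions were. On that scale the mean over the gene was 44.7 and 47.5 in the mutants and 54.4 and 59.0 in the controls, a difference of −10.6 points (exact permutation p = 0.333). Of the 209 genes with at least 5 shared regions, none other was as low on that scale, where their median was 0.862; by whole-list percentile 4 of the 209, Gli2 included, were at or below Gli2. The minimum of 5 regions was chosen after the values were seen. Without mutant 1, the whole-list difference of Gli2 was −0.0734; ranked among shared regions it ran from −13.2 (without control 1) to −5.32 (without control 2) when 1 library was left out.

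**Figure D4:**
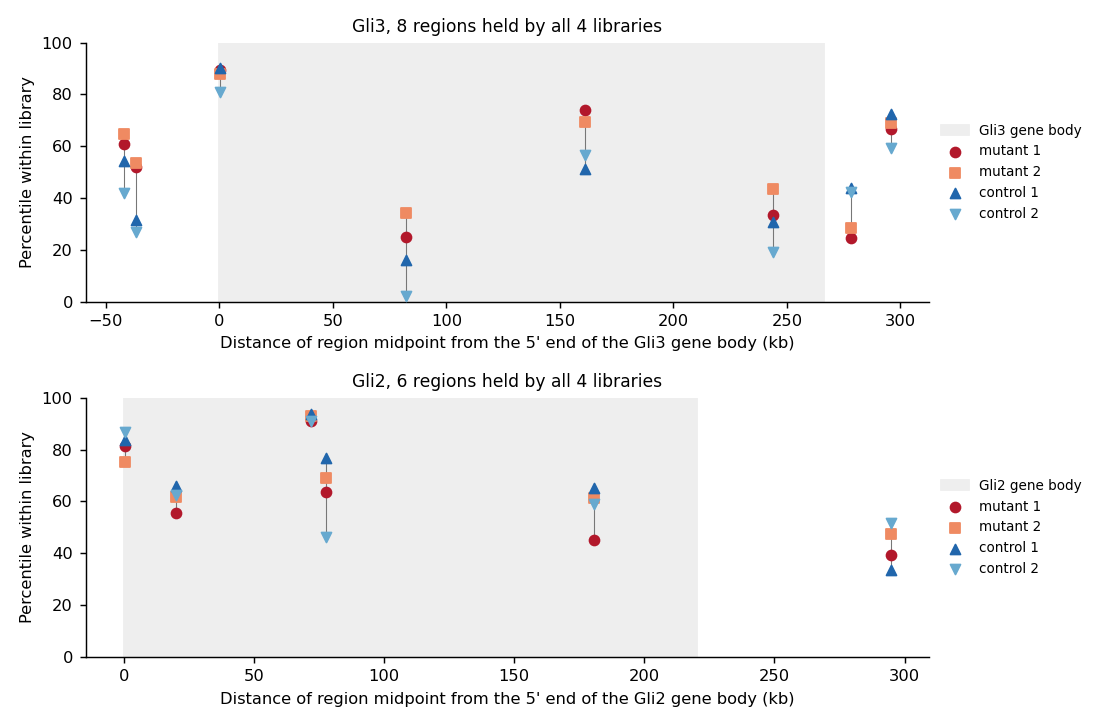
Percentile within its library (y axis) of each shared region of Gli3 (upper panel) and Gli2 (lower panel) against the distance of its midpoint from the 5′ end of the gene body (x axis, kb). Points are single libraries and grey marks the gene body. At Gli3 the mutant points lie above the control points in 5 regions and below them 12.1 kb past the gene.

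For Gli3 the mean over 8 shared regions was 53.2 and 56.3 in the mutants and 48.8 and 41.2 in the controls, a difference of 9.77 points (exact permutation p = 0.333). It was 3.34 without control 2 and 1.97 when an equal number of top-ranked peaks was taken from each list. By rank among shared regions it was 3.85, and 0.279 without control 1. Among the 209 genes, 39, Gli3 included, had a whole-list difference as high as that of Gli3, and 52 by rank among shared regions. The median difference over the 209 genes was 6.39 by whole-list percentile and 0.862 by rank among shared regions. The difference between the mean percentiles of the 2 genes, taken within each library as Gli3 minus Gli2, was −9.36 and −11.7 in the mutants and −21.1 and −25.0 in the controls (exact permutation p = 0.333). This comparison was chosen after the values were seen.

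No other gene separated the groups apart from Cdon. Its mean over 2 shared regions was 79.7 and 79.6 in the mutants and 75.6 and 71.4 in the controls, a difference of 6.16 points (exact permutation p = 0.333). Differences were 6.30 at Ptch1, 5.53 at Gas1, 5.27 at Gli1, 8.86 at Hhip, 2.30 at Boc and 1.85 at Smo, with overlapping groups and exact permutation p of 0.667 or 1. Without control 2 the difference was 4.06 at Cdon and 2.15 at Ptch1, and it was below 0 at Smo (−0.556), Gli1 (−0.868), Hhip (−1.72), Gas1 (−1.04) and Boc (−1.80). Thus 2 of the 9 genes had both mutants above both controls in the mean, and 28.1% of all 12168 genes with a shared region did. The reverse order was found in 0 of the 9 and in 4.79% of all. By rank among shared regions both mutants were above both controls at Gli3 and Cdon (16.5% of all genes) and below them at Gli2 (18.7% of all genes).

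By whole-list percentile, the share of the 33 shared regions with both mutants above both controls was near that of the whole series. Both mutants ranked above both controls in 10 of the 33 (30.3%), against 29.1% of all shared regions, and below them in 3 (9.09%), against 5.62%. The 10 were 5 at Gli3, 2 at Cdon and 1 each at Ptch1, Gas1 and Boc, and the 3 were 2 at Gli2 and 1 at Gli3. The median difference was 4.74 points, against 3.29 over all shared regions, and 26 of the 33 were positive (78.8%, against 75.3%). Ranked among shared regions, the counts were 8 (24.2%, against 17.6%) and 10 (30.3%, against 18.0%), and the median difference was −0.791, against −0.0225. The counts over whole lists also moved with single libraries, for the 9 genes and for all shared regions. Every remaining mutant was above every remaining control in 15 regions without mutant 1 (42.9%, against 52.5% of all shared regions), 13 without mutant 2 (37.1%, against 40.4%), 24 without control 1 (66.7%, against 70.9%) and 15 without control 2 (36.6%, against 34.1%). The reverse held in 3 without mutant 1 (8.57%, against 12.1%), 9 without mutant 2 (25.7%, against 18.2%), 5 without control 1 (13.9%, against 8.99%) and 19 without control 2 (46.3%, against 32.1%).

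**Figure D5:**
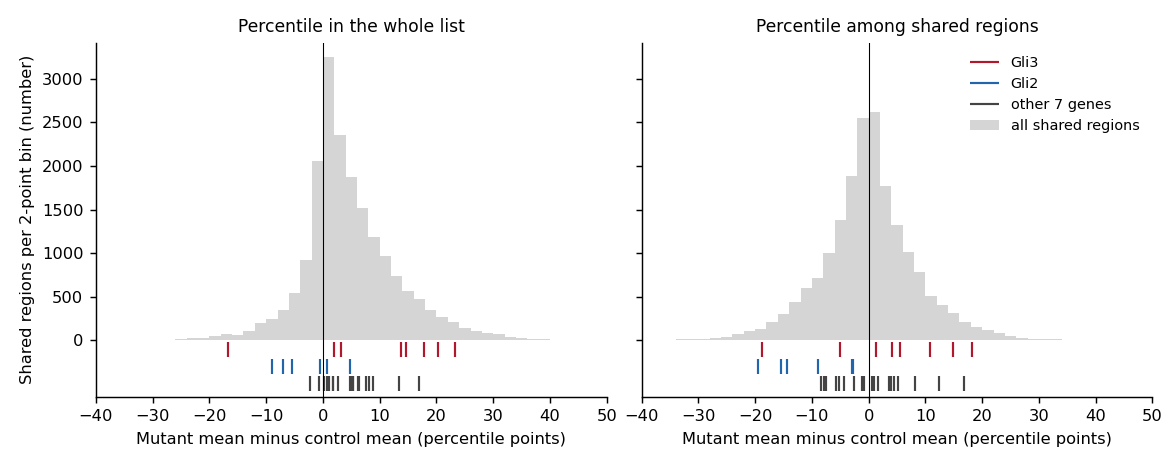
Number of shared regions (y axis) by the difference of mutant mean minus control mean in percentile points (x axis, bins of 2 points), from whole-list percentiles (left) and ranks among shared regions (right). Grey bars are all 18904 shared regions, and ticks are the regions of Gli3, Gli2 and the other 7 genes. The bars centre above 0 on the left, with a median of 3.29, and at −0.0225 on the right, where all 6 Gli2 ticks lie below 0.

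Of the regions that were not shared, 15 were held by 3 libraries, 5 by 2 and 17 by 1. Mutant 1 was missing from 2 of the 15 (13.3%, against 16.4% of all 3-library regions), mutant 2 from 2 (13.3%, against 10.1%), control 1 from 3 (20%, against 12.8%) and control 2 from 8 (53.3%, against 60.7%). Of the 17 in a single library, 4 were in mutant 1 (23.5%, against 24.1% of all such regions), 10 in mutant 2 (58.8%, against 39.1%), 2 in control 1 (11.8%, against 30.3%) and 1 in control 2 (5.88%, against 6.39%). These were weak peaks, with a median percentile of 7.87 and a highest value of 29.1. Among those held by 3 libraries were a Gli2 region inside the gene (118954550 to 118955550), with 41.6 and 38.0 in the mutants and 37.8 in control 1, and a Gli3 region 74.0 kb upstream (15389396 to 15390081), with 39.5 and 52.3 in the mutants and 34.2 in control 1. Peaks at the 9 genes numbered 17.8 and 18.9 per 10000 listed peaks in the mutants and 16.5 and 19.2 in the controls (difference 0.473, exact permutation p = 1).

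The other genes of the pathway formed a list of 36, of which 28 had a shared region, as did 12168 of all 21631 genes (56.3%). Their 108 regions held 47 shared ones, with both mutants above both controls in 11 (23.4%, against 29.1% of all shared regions) and below in 5 (10.6%, against 5.62%). Their median difference was 3.10 points, against 3.29. None of the 3 ligand genes Shh, Ihh and Dhh had a shared region. Of the 5 genes that act in ligand release, 3 had shared regions: Hhat, which encodes the acyltransferase of the ligand, had 3, Scube1 had 2, and Disp1, which encodes the transporter that releases it, had 1. The further receptor genes Lrp2 and Gpc3 had 1 each. Cytoplasmic regulators, among them Sufu, which binds Gli proteins, held 14 shared regions over 11 of 13 genes, and the 5 cilium genes held 8. The 8 target genes held 17, with most at Bcl2, a survival factor gene (4). Hhat shared the next highest count of 3 with Arl13b, Ccnd2, Mycn and Osr2.

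Genotype-specific regions of that list numbered 5 mutant-only and 2 control-only. The mutant-only ones lay inside Disp1, Shh, Ift88 and Sufu and 95.4 kb from Mycn. Their percentiles were 7.26 and 23.7 at Disp1, 3.20 and 9.86 at Shh, 7.64 and 2.11 at Mycn, 3.20 and 0.548 at Ift88, and 24.1 and 3.63 at Sufu. The control-only ones lay inside Bcl2, at 22.1 and 15.7, and inside Scube1, at 11.5 and 20.2. The highest of these percentiles was 24.1. Over all regions 4.47% were mutant-only and 1.07% control-only, and in the list the share was 4.63% and 1.85%.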

How the data were processed

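ATAC-seq was done on sorted palatal cells, with 2 mutant and 2 control libraries grouped by the genotype in the labels. The authors deposited 1 peak list per library in the 10 columns of the narrowPeak layout, in mm10 per the submitters' processing notes. Aligner, peak caller and settings were not given in the sources used here. Peak names carry the name of a merged alignment and their numbering has gaps. Whether peaks were left out after calling is not stated. Per peak, the deposited score was the whole part of 10 times the −log10 p of a peak, in all rows of mutant 2 and control 1, in 29215 of 29217 rows of mutant 1 and in 22956 of 22959 rows of control 2 on the chromosomes used. The authors' fold enrichment is relative to a background that the labels do not name. Each peak also has the authors' −log10 of its p-value and of its q-value. Peak values are the authors' own and describe peaks within a list. The depth in reads is unknown, and values carry no counting error.

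After leaving out chromosome Y, peaks were merged, assigned by midpoint and ranked with Python 3.11.15, pandas 2.3.3 and numpy 2.4.6, and the steps were checked on simulated lists. Where a library had several peaks in a region, the highest counted. Genes came from the RefSeq table of GRCm38.p6, which gives no exons. The named regions are, per gene, the strongest shared one within 1 kb of an end and the strongest elsewhere, all genotype-specific ones, and the 3 largest differences per direction without overlap. In the pathway list they are genes with a genotype-specific region and those with most shared ones. Other regions named were chosen after their values were seen. The members and lists were chosen with earlier results of these data known, and a few genes of the marker and pathway lists are not reported here and are in none of the counts for those lists.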

Additional observations from a re-analysis of the deposited data

How the results depend on the processing

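Read depth is unknown and a missing call is not a missing peak, so absences are limits of the lists. The difference in mean percentile kept its direction at Gli3, Gli2 and Cdon under all 14 alternatives, but several of these could hardly alter it. Requiring 200 bp of overlap, joining gaps up to 200 bp and averaging several peaks of a library left it unchanged at these genes. The replicate block described below cannot change it. The 50 kb limit left it unchanged at Gli3 and Cdon, and the use of all annotated genes at Gli2 and Cdon. Hhip had no value in the upper 50% of each list. Gli3 ran from 1.97 (equal peak numbers) to 15.3 (upper 50% of each list), Gli2 from −11.7 (ranked by the deposited enrichment) to −0.0734 (without mutant 1), and Cdon from 3.32 to 12.3. Ranking among shared regions with 1 library left out was added after the data were seen, and gave 0.279 to 4.66 at Gli3 and 1.49 to 5.25 at Cdon.

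Ranked among shared regions, the difference was −0.791 at Gli1 and −1.73 at Boc, and the median over the 33 regions was −0.791. Both mutants were below both controls in 10 of the 33 (30.3%, against 18.0% of all shared regions). With 22959 peaks from each list the difference was −0.450 at Ptch1, −1.01 at Gli1, −0.593 at Gas1 and −1.50 at Boc, and the median was −1.34. Of the 32 regions then shared, 6 were above and 11 below, against 2970 and 3097 of all 17202 shared regions. Mutant-only and control-only regions were 2 and 0, against 710 and 637 in the whole series. These are counts without shares, since the number of all regions at that setting is not given here. The difference in peaks per 10000 was 0. In the upper 50% of each list 19 regions were shared and 6 were above, against 3078 of all 10840 shared regions. There 0 were control-only, against 55 in the whole series, again as counts without shares. The difference in peaks per 10000 was −1.16. By deposited enrichment 6 of the 33 were below, against 1761 of all 18904 shared regions. Within 50 kb the difference in peaks per 10000 was −0.0146. With regions assigned to the nearest of all annotated genes, 21 were shared and 6 were above, against 5499 of all 18904 shared regions. The difference was then 7.66 at Gli3, 3.82 at Ptch1, 5.33 at Gas1 and −1.07 at Boc. Separated regions assigned to another annotated gene at that setting were those upstream of Gli3, that 54.0 kb from Ptch1 and that inside Boc (44530590 to 44531561).

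With 1 library left out, shared regions numbered 35 to 41, mutant-only regions 4 to 11, control-only regions 2 to 3, regions above 13 to 24 and below 3 to 19, and the median difference ran from −1.29 (without control 2) to 8.10 (without control 1). Peaks per 10000 differed by −0.838 without control 1, −0.0557 without mutant 2 and up to 1.78 otherwise. Gene differences were lowest without control 2 and highest without control 1 at Smo (−0.556 to 4.25), Gli1 (−0.868 to 11.4), Hhip (−1.72 to 19.4), Gas1 (−1.04 to 12.1) and Boc (−1.80 to 6.40). Leaving out a library also redefines each class. The causes of these shifts were not tested.

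The labels number the libraries of each group 1 and 2 without saying that a number pairs them. Taken as a replicate block, 12 shared regions were higher (36.4%, against 38.4% of all shared regions) and 3 lower (9.09%, against 8.96%) in the mutant of both pairs, where 10 and 3 separated the groups without it. The difference at Gli3 was 9.77 (exact sign-flip p = 0.5, the smallest possible). Deviations of same-numbered libraries had a correlation of −0.0316 over the 18904 shared regions.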
